A study of Mus musculus with 4 samples.

Results

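The T-box genes T, Eomes, Mga, Tbx1, Tbx2, Tbx3, Tbx4, Tbx5, Tbx6 and Tbx20 were followed in RNA-seq of differentiating E14-Tg2a mESCs, an established line of mouse embryonic stem cells. These 10 genes were found by symbol among the 55487 gene IDs of the authors' table of read counts, and each had a single ID. The cells were wild type, and 2 libraries were made at d4 and 2 at d2 of the protocol that yields cardiac mesoderm. At d4 the cells were aggregates, formed anew from dissociated cells and kept for 40 h in Activin A (8 ng/ml), BMP4 (0.5 ng/ml) and VEGF (5 ng/ml), after 48 h without serum. At d2 they had only passed these 48 h without serum. Day, added factors and reaggregation therefore cannot be told apart. The 2 libraries of a day came from independent differentiation experiments of a single line, so their spread does not cover differences between lines. The comparison asks which T-box factors of the primitive streak and which of the heart were expressed at either day.

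T-box factors bind DNA through a shared domain, the T-box, which recognizes a short motif. In the mouse embryo some act at gastrulation, where T and Eomes direct the formation of mesoderm and endoderm in the primitive streak and Tbx6 directs paraxial mesoderm. Others act later in the heart, where Tbx5 and Tbx20 activate the chamber program, Tbx2 and Tbx3 repress it in the atrioventricular canal and conduction system, and Tbx1 acts in pharyngeal mesoderm.

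Total counts were 11397439 and 16851485 in d4 replicates 1 and 2, and 12068584 and 14038796 in d2 replicates 1 and 2. The floor used for genes at 0, which is 3 counts in a library, corresponded to 0.176 to 0.254 CPM (counts divided by the TMM-scaled total and brought to a common scale). Intervals and floors cover counting error only. The first principal component of the libraries held 91.2% of the variance. All 9 endothelial genes and all 7 primitive blood genes on the marker lists rose, and 8 of 9 pluripotency and epiblast genes fell. Among all genes tested, 12.9% rose and 11.4% fell. Of 7 cardiomyocyte genes, 6 were tested, of which 1 (Tnnt2) rose, 3 fell and 2 did not pass, and Nkx2-5, the early cardiac homeobox factor, had 2 and 3 counts in the d4 libraries, against 1 and 0 in the d2 libraries. The summed level of the endothelial list was 1110 to 1370 CPM at d4 and 24.3 to 27.7 CPM at d2, and that of the cardiomyocyte list was 23.9 to 25.0 CPM at d4 and 33.0 to 44.7 CPM at d2. Of 7 endoderm genes, 4 were tested, of which 3 (Sox17, Cer1 and Hhex) rose and 1 (Trh) fell. Foxa2, Foxa1 and Afp were not tested, with at most 12 counts in any library. Of 7 neuroectoderm genes, 4 were tested and all 4 fell. The part that a change in cell types played in the T-box results was not tested. In bulk samples more cells of a type and more RNA per cell cannot be told apart.

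Of the 10 T-box genes, 9 passed the filter on low counts, and 6 of these 9 rose at d4 (edgeR's quasi-likelihood test, Benjamini-Hochberg adjusted p under 0.01 over 14932 genes). These were T and Eomes from the streak set and Tbx2, Tbx3, Tbx5 and Tbx20 from the heart set. None fell, and Mga, Tbx4 and Tbx6 did not pass. Over all genes tested, 12.9% rose and 11.4% fell. The median log2 fold change of the 9 genes was 5.21, or 4.23 with the gene at 0 counts at its lower bound, beside -0.027 for all genes tested. In 7 of the 9 genes both d4 libraries lay above both d2 libraries, which was the case for 35.8% of all genes tested, and in none did both lie below, which was the case for 35.2%. The filter kept genes that passed at either day. T, Tbx2, Tbx3, Tbx5 and Tbx20, with 0 to 8 counts in each d2 library, could pass only through d4, where they were high. Counts and medians of tested genes, here and in the lists below, were taken after this selection and are description only.

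**Figure D1:**
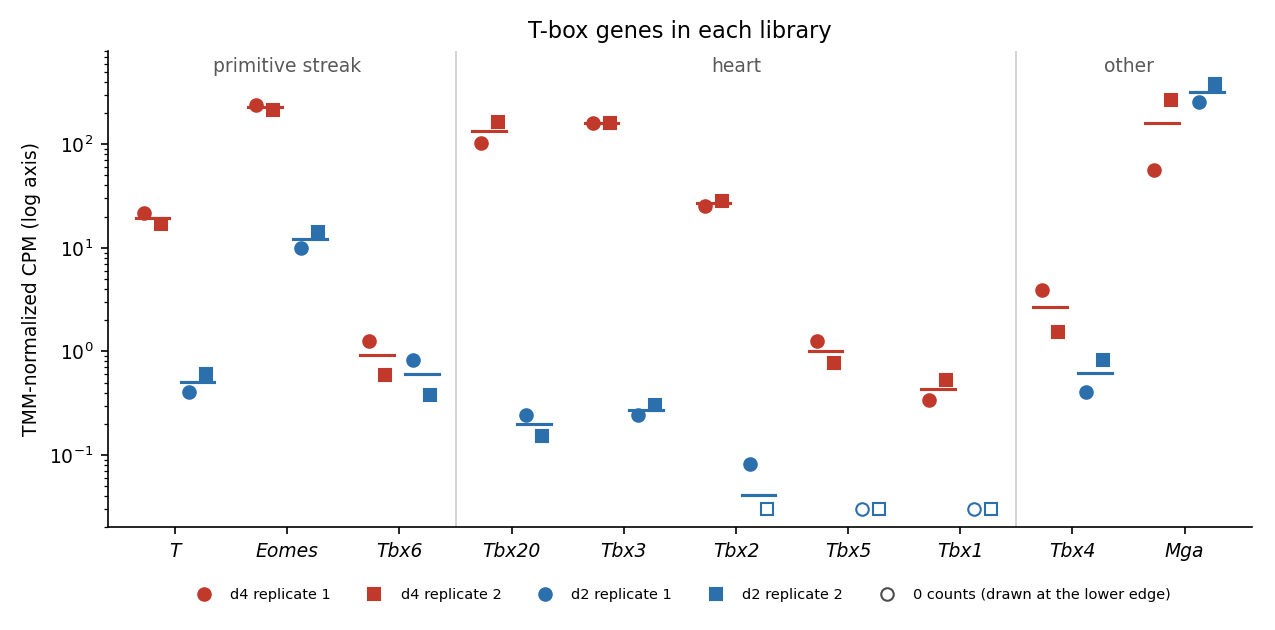
Level of each T-box gene in CPM (log axis) in the 2 d4 libraries (red) and the 2 d2 libraries (blue), with a bar at the mean of each day and open symbols for 0 counts. The d4 libraries lie above the d2 libraries for every gene but Tbx6 and Mga, where the days overlap.

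The edgeR calls, of T-box genes as of all other genes, needed both d2 libraries. With either d2 replicate left out, edgeR called 0 genes of the whole table, with lowest adjusted p of 0.0189 without replicate 1 and 0.0180 without replicate 2, while 6257 and 5973 genes had an unadjusted p under 0.05. DESeq2 on the same 3 libraries called 5 of the T-box genes higher in each case.

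Among the streak genes, T had 254 and 289 counts in the d4 libraries, against 5 and 8 in the d2 libraries. T encodes brachyury, the founding member of the family, needed for posterior mesoderm and notochord. Its level averaged 19.2 ± 3.17 CPM at d4 and 0.507 ± 0.140 CPM at d2 (SD, n = 2 each), a log2 fold change of 5.21 ± 0.36 (SE) with an edgeR adjusted p of 1.10e-04. The gene lies on chromosome 17 (chr17:8434423-8442496, plus strand, mm10). It ranked 356 of 14932 genes by log2 fold change, below Tbx2, Tbx3 and Tbx20.

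Eomes had the most reads of the streak genes at both days, with 2820 and 3664 counts in the d4 libraries, against 122 and 187 in the d2 libraries. It encodes eomesodermin, which is needed for definitive endoderm and for the mesoderm that forms the heart, and also acts in trophoblast. Its level averaged 227 ± 16.3 CPM at d4 and 12.1 ± 2.98 CPM at d2 (SD, n = 2 each). The log2 fold change was 4.23 ± 0.26, with an edgeR adjusted p of 8.65e-05 (chr9:118478212-118486132, plus strand). Eomes was thus already read at d2, at a level where T and all 5 heart genes stayed under 1 CPM.

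Tbx6 did not follow them. It had 15 and 10 counts in the d4 libraries, against 10 and 5 in the d2 libraries, and the days overlapped on the CPM scale. Its log2 fold change was 0.58 ± 0.62, with an edgeR adjusted p of 0.49 (chr7:126781483-126785560, plus strand). A difference of the size of its standard error was not detectable at this depth. Other paraxial mesoderm genes were mixed. Of 7 on the list, 4 were tested. Meox1, a somite homeobox factor, rose, with 37 and 47 counts in the d4 libraries, against 3 and 4 in the d2 libraries (log2 fold change 3.37 ± 0.44, edgeR adjusted p = 0.00111). Dll3 and Lfng, which act in NOTCH signalling of the presomitic mesoderm, fell by 2.86 and 2.98 on the log2 scale (edgeR adjusted p = 0.00393 and 0.00181). Tcf15 had a log2 fold change of -0.09 ± 0.52, and Msgn1, a direct target of T-box factors in the presomitic mesoderm, had 0 counts in all 4 libraries.

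Among the heart genes, Tbx3 had 1894 and 2745 counts in the d4 libraries, against 3 and 4 in the d2 libraries. Tbx3 is a repressor of the conduction system and sinoatrial node, and is also known from stem cells and extraembryonic endoderm. Its levels in the d4 libraries were close, at 160 and 161 CPM, against 0.245 and 0.303 CPM in the d2 libraries. The log2 fold change was 9.14 ± 0.30, with an edgeR adjusted p of 3.95e-05 (chr5:119670669-119684724, plus strand).

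Tbx20 had 1212 and 2815 counts in the d4 libraries, against 3 and 2 in the d2 libraries. It acts in cardiac progenitors and chamber myocardium. The level was 102 CPM in d4 replicate 1 and 165 CPM in d4 replicate 2, a wider spread than that of Tbx3, against 0.245 and 0.152 CPM in the d2 libraries. Its log2 fold change of 9.35 ± 0.45 ranked 55 of 14932, the highest of the 9 T-box genes tested, although Tbx3 and Tbx2 lay within its standard error (edgeR adjusted p = 4.50e-05, chr9:24718138-24774303, minus strand).

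Tbx2 had 302 and 479 counts in the d4 libraries, against 1 and 0 in the d2 libraries. Tbx2 is a repressor of chamber genes in the atrioventricular canal and a close paralog of Tbx3. With a single read at d2, the ratio of normalized counts was 689, with an exact 95% binomial counting interval of 123 to 27200 (edgeR adjusted p = 7.05e-05, chr11:85832551-85841948, plus strand). Its d4 levels were 25.5 and 28.1 CPM.

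Tbx5 and Tbx1 were read only a few times. Tbx5, a factor of the first heart field and the forelimb, had 15 and 13 counts in the d4 libraries, against 0 in both d2 libraries. With both d2 libraries set to the floor, it was at least 4.30-fold higher (edgeR adjusted p = 0.00730, chr5:119832668-119885219, plus strand). This call ended with DESeq2 size factors in edgeR (adjusted p = 0.0103) and with counts thinned to the smallest library (adjusted p = 0.0117). Tbx1, a factor of the second heart field and pharyngeal mesoderm, had 4 and 9 counts in the d4 libraries, against 0 in both d2 libraries. It was under the filter and not tested, and with d2 at the floor it was at least 1.83-fold higher (chr16:18580979-18590671, minus strand).

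**Figure D2:**
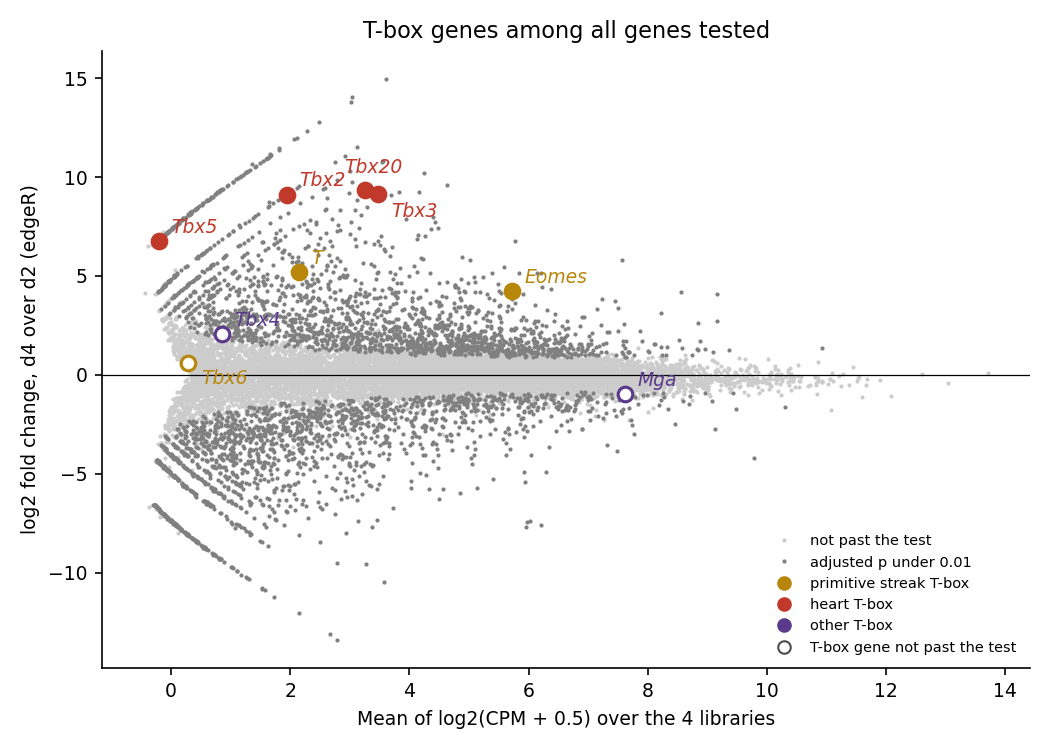
Log2 fold change of d4 over d2 by edgeR (vertical) against the mean of log2(CPM + 0.5) over the 4 libraries (horizontal) for 14932 genes, with 9 T-box genes marked and open circles for those that did not pass the test. The heart genes Tbx2, Tbx3 and Tbx20 lie above the streak genes T and Eomes, and Tbx5, at 0 counts at d2, is drawn at a fitted value that depends on the prior count.

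RefSeq windows around the start of transcription were at hand for 7 of the 10 genes, namely T, Eomes, Mga, Tbx1 (which has 2), Tbx4, Tbx6 and Tbx20. The 250 bases before the start are printed for the genes of this set that rose, on the strand of the gene (GRCm38.p6), with each CpG in capitals to show where their CpG content lies. The window of T is chr17:8434173-8434422 (plus strand), that of Eomes is chr9:118477939-118478188 (plus strand) and that of Tbx20 is chr9:24774304-24774553 (minus strand).
T: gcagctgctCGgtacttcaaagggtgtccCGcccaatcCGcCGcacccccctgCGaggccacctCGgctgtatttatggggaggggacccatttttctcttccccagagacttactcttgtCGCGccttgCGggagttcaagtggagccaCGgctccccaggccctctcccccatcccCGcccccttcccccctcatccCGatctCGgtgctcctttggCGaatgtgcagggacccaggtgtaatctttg
Eomes: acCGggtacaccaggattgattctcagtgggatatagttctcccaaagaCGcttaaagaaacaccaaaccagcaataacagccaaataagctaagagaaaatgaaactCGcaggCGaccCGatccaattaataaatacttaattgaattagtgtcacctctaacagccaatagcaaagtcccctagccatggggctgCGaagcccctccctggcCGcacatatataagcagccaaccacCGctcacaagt
Tbx20: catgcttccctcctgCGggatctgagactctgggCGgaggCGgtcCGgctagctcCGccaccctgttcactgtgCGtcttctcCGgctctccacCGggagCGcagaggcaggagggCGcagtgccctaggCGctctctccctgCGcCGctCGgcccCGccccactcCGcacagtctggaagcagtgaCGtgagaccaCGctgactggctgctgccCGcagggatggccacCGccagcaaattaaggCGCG

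The window of Tbx20 held 22 CpGs, that of T held 14 and that of Eomes held 8, beside a median of 6 over 32817 RefSeq windows. Mga, which was read at both days, held 18, the windows of Tbx1 held 17 and 10, and Tbx6 and Tbx4 held 6 each. The GC content was 68.8% for Tbx20, 62.8% for T and 46.4% for Eomes. In the full windows, which run 50 bases past the start, the T-box motif AGGTGTGA was found on neither strand of any of these 7 genes, and 1.27% of all windows hold it. The TCF/LEF motif CTTTGAT and the GATA motif AGATAA were likewise absent, and 3.73% and 11.2% of all windows hold them. TATAAA, found in 13.6% of all windows, was present 43 bases before the start of Tbx6 on the same strand. It was also present on the other strand, 85 bases before the RefSeq start used for Tbx4. That window of Tbx4 (chr11:85896515-85896764) lies inside the gene as annotated here (chr11:85886422-85916097), so it belongs to an internal start. Only these exact strings were searched, and other forms of each motif were not.

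Since the family shares a coding domain, reads could in principle fit more than 1 member. Of the windows of 75 bases in the annotated transcripts, the length of 1 read, none was shared with another gene for 8 of the members. Eomes shared 45 of 4155 windows with Gm33460 and Tbx3 shared 42 of 6685 with Tbx3os1, genes on the other strand that overlap them. Among the 45 pairs of members, the longest identical stretch of coding sequence was 26 bases, between Eomes (chr9:118482257-118482282) and Tbx1 (chr16:18582925-18582950), and the next was 23 bases, between Tbx4 (chr11:85911942-85911964) and Tbx5 (chr5:119853535-119853557) and between Tbx5 and Tbx6. The first and one of the next are shown, on the coding strand, for how far they fall short of a read.
Eomes and Tbx1: aaccccttcgccaaaggcttccggga
Tbx4 and Tbx5: cagctgaaaattgagaacaaccc

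Some of the members are neighbours in the genome. Tbx3 and Tbx5 lie 148 kb apart on chromosome 5, on the same strand, and 3 noncoding genes are annotated between them. Per length of exon, as RPKM (CPM divided by the length of exon in kilobases), the level of Tbx3 was 89.1 and 149 times that of Tbx5 in the d4 libraries. Tbx2 and Tbx4 lie 44.5 kb apart on chromosome 11, also on the same strand, and the RPKM of Tbx2 was 6.16 and 17.3 times that of Tbx4 in the d4 libraries. Tbx3os1, which runs against Tbx3 and overlaps its start by 697 bases, had 58 and 76 counts in the d4 libraries, against 0 in both d2 libraries, and was at least 19.8-fold higher (edgeR adjusted p = 4.31e-04). 2610027K06Rik, whose start lies 328 bases from that of Tbx2 on the other strand, had 15 and 22 counts in the d4 libraries, against 0 in both d2 libraries, and was at least 5.42-fold higher (edgeR adjusted p = 0.00306). The reads were counted by strand. Gm33460, which overlaps the end of Eomes on the other strand by 574 bases, had 3 and 2 counts in the d4 libraries, against 11 and 14 in the d2 libraries, and did not pass (log2 fold change -2.43 ± 0.62, edgeR adjusted p = 0.0181). Tbx3os2 and Gm43050, which lie near Tbx3 and Tbx5, had at most 4 counts in any library, and Ypel3 and Ppp4c beside Tbx6 did not pass.

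Tbx4 acts in the hindlimb and in the allantois, the extraembryonic mesoderm that forms the umbilical vessels. It had 46 and 26 counts in the d4 libraries, against 5 and 11 in the d2 libraries. Both d4 libraries lay above both d2 libraries, and the log2 fold change of 2.06 ± 0.62 missed the threshold (edgeR adjusted p = 0.0357, chr11:85886422-85916097, plus strand). Without d4 replicate 2 it was 2.62 with an edgeR adjusted p of 2.26e-05, and without d4 replicate 1 it was 1.28 with an edgeR adjusted p of 0.0850. With no filter on low counts the edgeR adjusted p was 2.92e-05, with limma voom it was 0.0600 and with counts thinned to the smallest library it was 0.215. The genes listed for the allantois and extraembryonic mesoderm rose together, 6 of the 6 tested of 7 listed, beside 12.9% of all genes tested. Foxf1, a forkhead factor of lateral and extraembryonic mesoderm, had 695 and 1122 counts in the d4 libraries, against 2 and 0 in the d2 libraries, a ratio of 801 (interval 221 to 6620, edgeR adjusted p = 6.66e-05). Bmp4, Ahnak and Pitx1 rose with edgeR adjusted p of 4.50e-05, 4.49e-05 and 5.42e-04. Postn was at least 89.3-fold and Hand1 at least 1250-fold higher, with 0 counts at d2. Hand1 is also on the list of factors that act with the heart T-box genes, so the lists are not separate. Vcam1 had 6 counts in each d4 library, against 0 in both d2 libraries, and was not tested.

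Mga differs from the other members in holding, beside its T-box, a basic helix-loop-helix zipper domain that pairs with MAX. It is a subunit of the Polycomb complex PRC1.6, which represses germ line genes in stem cells. Mga had 666 and 4520 counts in the d4 libraries, against 3160 and 5039 in the d2 libraries. On the CPM scale these were 56.3 and 266 at d4 and 258 and 382 at d2, so that d4 replicate 1 stood apart and d4 replicate 2 lay within the range of d2. The log2 fold change was -0.99 ± 0.63, with an edgeR adjusted p of 0.26 (chr2:119897228-119969581, plus strand). Without d4 replicate 2 it was -2.50 with an edgeR adjusted p of 2.87e-08, and without d4 replicate 1 it was -0.27 with an edgeR adjusted p of 0.604. With no filter on low counts it was -0.97 with an adjusted p of 1.95e-04.

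The difference between the d4 libraries, replicate 1 minus replicate 2, was -2.23 for Mga on the log2(CPM + 0.5) scale, and 128 of 14932 genes (0.857%) had a lower one. Mga has 15340 bases of exon and a GC content of 42.2%. Among 320 genes with at least 10000 bases of exon and a GC content within 2 points of that of Mga, the median difference was -0.69, and 16 (5%) had a lower one than Mga. Tbx20, with 11997 bases of exon and a GC content of 42.3%, had a difference of -0.69. The rank correlations were taken on replicate 2 minus replicate 1, opposite in sign to the differences above. Across 14924 genes the Spearman rho with GC content was -0.48 at d4 and -0.70 at d2. Genes of lower GC content thus tended to be read more in replicate 2. With exon length the rho was 0.21 at d4 and 0.035 at d2. The points share the same libraries. The part of base content or length in the values of Mga was not tested. As replicate 1 minus replicate 2, Tbx4 lay at the other end with a difference of 1.11, above 99.7% of genes. Those of Tbx2, Tbx3 and Eomes lay between -0.14 and 0.15.

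**Figure D3:**
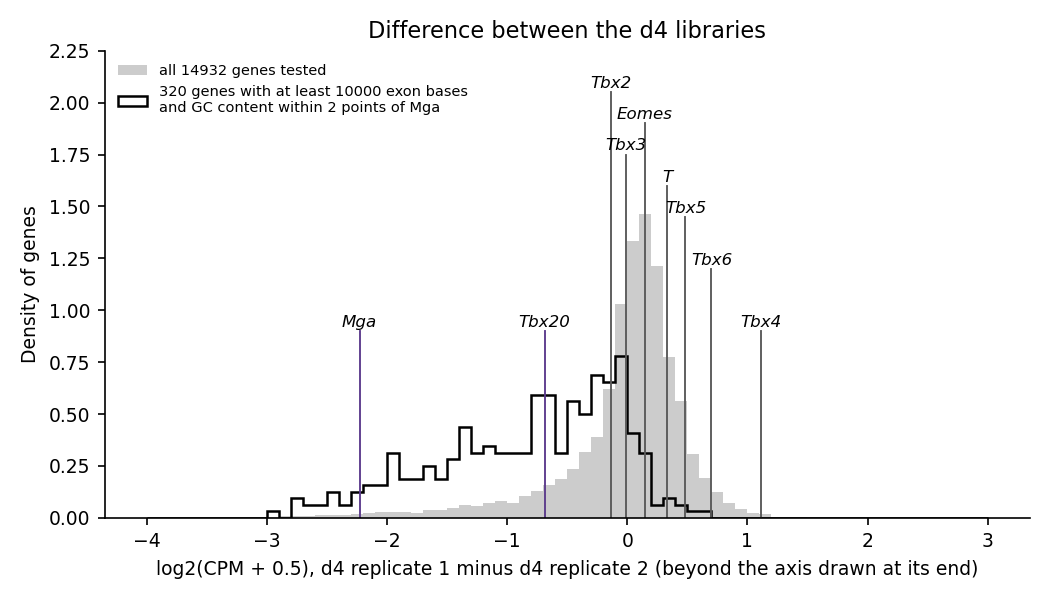
Difference between the d4 libraries, replicate 1 minus replicate 2, on the log2(CPM + 0.5) scale (horizontal) against the density of genes (vertical) for all 14932 genes tested (grey) and for 320 long genes of like GC content to Mga (outline), with lines at the 9 T-box genes tested. Mga at -2.23 lies in the low tail of all genes, where the outline stands above the grey.

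The other subunits of PRC1.6 were read at both days, and none of the 13 listed passed the edgeR test. Of all genes tested, 24.3% passed in either direction. Their median log2 fold change was -0.26. Those with the smallest edgeR adjusted p were Yaf2, with a log2 fold change of 1.31 ± 0.29 (adjusted p = 0.0121), Pcgf6, the ring finger subunit that defines the complex, with -0.97 ± 0.23 (adjusted p = 0.0145), Hdac1 with -0.67 ± 0.18 (adjusted p = 0.0248) and L3mbtl2 with -0.85 ± 0.24 (adjusted p = 0.0319). This depended on the setting, since 1 of the 13 was higher and 2 were lower with DESeq2, and 1 was higher and 3 were lower with no filter on low counts and at an edgeR adjusted p under 0.05. Of 14 germ line genes that the complex is known to repress, 13 were tested, of which 7 fell, none rose and 6 did not pass, beside 11.4% of all genes that fell. The median log2 fold change was -5.09, or -3.40 with genes at 0 counts at their bound. Ddx4, the germ cell RNA helicase also known as Vasa, had 1 and 4 counts in the d4 libraries, against 227 and 327 in the d2 libraries (log2 fold change -6.91 ± 0.45, edgeR adjusted p = 9.59e-05). Tdrd1, a factor of the piRNA pathway, had 5 and 6 counts in the d4 libraries, against 119 and 111 in the d2 libraries (log2 fold change -4.53 ± 0.36, edgeR adjusted p = 1.74e-04). Mael had 1 and 0 counts in the d4 libraries, against 58 and 82 in the d2 libraries, a ratio of 0.0063 (interval 1.58e-04 to 0.0357, edgeR adjusted p = 3.69e-04). Zcwpw1, a reader of histone methylation in meiosis, fell by 2.19 on the log2 scale (edgeR adjusted p = 6.13e-04). The pluripotency list fell with these genes, with a summed level of 33.4 to 40.6 CPM at d4 and 1420 to 1670 CPM at d2, and its part in the germ line result was not tested.

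Per length of exon, the make-up of T-box expression differed between the days. The summed RPKM of the 10 genes was 117 and 125 in the d4 libraries, against 20.3 and 27.3 in the d2 libraries. Mga made up 3.27% and 14% of the sum in the d4 libraries, against 83.9% and 85.6% in the d2 libraries. The 3 streak genes made up 60.0% and 48.2% in the d4 libraries, against 15.1% and 13.4% in the d2 libraries, and the 5 heart genes made up 35.7% and 37.4%, against 0.399% and 0.201%. Of the streak and heart genes alone, the streak share averaged 59.5% at d4 and 98.0% at d2. The sets hold 3 and 5 genes, which are not replicates, and their difference was not tested.

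At d4 the order by RPKM began with Eomes (59.5 and 52.3) and Tbx3 (25.1 and 24.6) in both libraries, and their ratio was 2.37 and 2.13. T (9.63 and 7.41), Tbx20 (8.86 and 13.9) and Tbx2 (7.31 and 7.84) followed. T came before Tbx20 and Tbx2 in d4 replicate 1 and after them in d4 replicate 2. Mga had an RPKM of 3.81 and 17.5, so it stood at place 6 in d4 replicate 1 and at place 3 in d4 replicate 2. Tbx4, Tbx6, Tbx5 and Tbx1 came last in both. At d2 Mga led with 17.1 and 23.4, and Eomes came next with 2.43 and 3.21. With coding length in place of exon length, the streak share of streak and heart genes was 39.9% at d4 and 95.6% at d2, and Tbx20, whose exons are mostly noncoding, came before Eomes in d4 replicate 2.

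**Figure D4:**
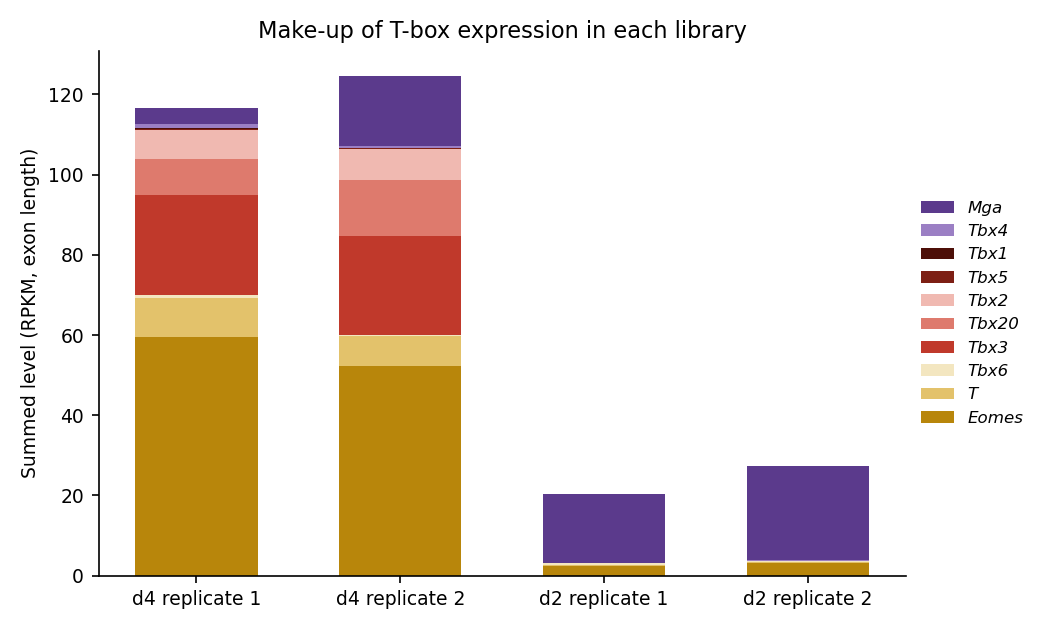
Summed level of the T-box genes (RPKM, per exon length) in each d4 and d2 library, stacked by gene from Eomes at the base to Mga at the top. The d4 libraries reach 117 and 125, mostly Eomes and Tbx3, and the d2 libraries reach 20.3 and 27.3, mostly Mga.

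The remaining 7 T-box genes of the mouse were all under the filter. Tbx10 and Tbx19 had 0 counts in all 4 libraries. Tbx21, the factor of T helper cells, had 0 counts in both d4 libraries, against 9 and 6 in the d2 libraries, and Tbx22 had 0 counts in both d4 libraries, against 2 and 7 in the d2 libraries. Tbx15 had 5 and 10 counts in the d4 libraries, against 3 in each d2 library. Tbr1 had 5 and 6 counts in the d4 libraries, against 1 and 2 in the d2 libraries, and Tbx18, a factor of the epicardium and sinus venosus, had 1 count in each d4 library, against 3 in each d2 library.

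Of 18 genes that act with T and Eomes in the streak and early mesoderm, 12 were tested, of which 9 rose, 2 fell and 1 (Gsc) did not pass. Among all genes tested, 12.9% rose and 11.4% fell. The median log2 fold change of the list was 4.80, or 3.90 with genes at 0 counts at their bound. Mixl1, a homeobox factor of mesendoderm, had 1266 and 1522 counts in the d4 libraries, against 4 and 5 in the d2 libraries (log2 fold change 8.08 ± 0.32, edgeR adjusted p = 3.95e-05). Rspo3, which enhances WNT signalling, had 1186 and 1878 counts in the d4 libraries, against 9 and 21 in the d2 libraries (log2 fold change 6.48 ± 0.37, edgeR adjusted p = 6.92e-05). Lhx1, a target of Eomes, had 232 and 272 counts in the d4 libraries, against 0 and 1 in the d2 libraries, and Evx1, a factor of the posterior streak, was at least 47.5-fold higher. The 2 that fell were the NOTCH ligand Dll1, with 30 and 23 counts in the d4 libraries, against 99 and 97 in the d2 libraries, and the protocadherin Pcdh8, with 1 and 0 counts in the d4 libraries, against 13 and 19 in the d2 libraries. These 2 were named after their values were seen. Msgn1 and the notochord factor Noto were at 0 in every library. Of 7 trophoblast genes listed for the role of Eomes there, Plac1 and Tfap2c rose, with log2 fold changes of 6.52 ± 0.41 and 5.00 ± 0.45 (edgeR adjusted p = 8.89e-05 and 2.55e-04), and the other 5, Elf5 and Prl3d1 among them, had at most 4 counts in any library.

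Of 10 factors that act with the heart T-box genes, 9 were tested, of which 8 rose and 1 (Casz1) did not pass. This stands beside 12.9% of all genes tested that rose. The median log2 fold change was 7.35, or 6.10 with genes at 0 counts at their bound. Gata4, a zinc finger factor of cardiac mesoderm, had 1558 and 1772 counts in the d4 libraries, against 5 and 3 in the d2 libraries (log2 fold change 8.51 ± 0.36, edgeR adjusted p = 3.95e-05). Gata6 rose by 7.35 ± 0.30 on the log2 scale (edgeR adjusted p = 3.95e-05). Hand2 had 549 and 741 counts in the d4 libraries, against 1 in each d2 library, and Hand1, its paralog, had 3681 and 4757 counts in the d4 libraries, against 0 in both d2 libraries. Nkx2-5 was not tested.

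Genes known as targets of heart T-box factors are given singly, since their list was shortened after its values were seen and its counts carry no weight. Of the 9 kept, 6 were tested, of which 3 rose, 2 fell and 1 did not pass, beside 12.9% and 11.4% of all genes that rose and fell. Fgf10, a second heart field ligand that Tbx1 activates, had 1110 and 2146 counts in the d4 libraries, against 2 and 1 in the d2 libraries, a ratio of 957 (interval 327 to 4640, edgeR adjusted p = 3.95e-05). Tgfb2 and Has2 rose by 5.76 ± 0.35 and 4.06 ± 0.38 on the log2 scale (edgeR adjusted p = 7.59e-05 and 2.97e-04). Myh6, the atrial myosin heavy chain, had 9 and 13 counts in the d4 libraries, against 247 and 177 in the d2 libraries (log2 fold change -4.44 ± 0.36, edgeR adjusted p = 1.81e-04). Gja1, the gap junction gene of many tissues, fell by 1.73 on the log2 scale (edgeR adjusted p = 0.00156). Mycn had a log2 fold change of -0.77 ± 0.19 and did not pass (edgeR adjusted p = 0.0161). Nppa, the chamber gene that Tbx5 activates and Tbx2 and Tbx3 repress, had 0 counts in all 4 libraries, Nppb had a single count, in d2 replicate 2, and Gja5 had at most 3 counts in any library.

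**Figure D5:**
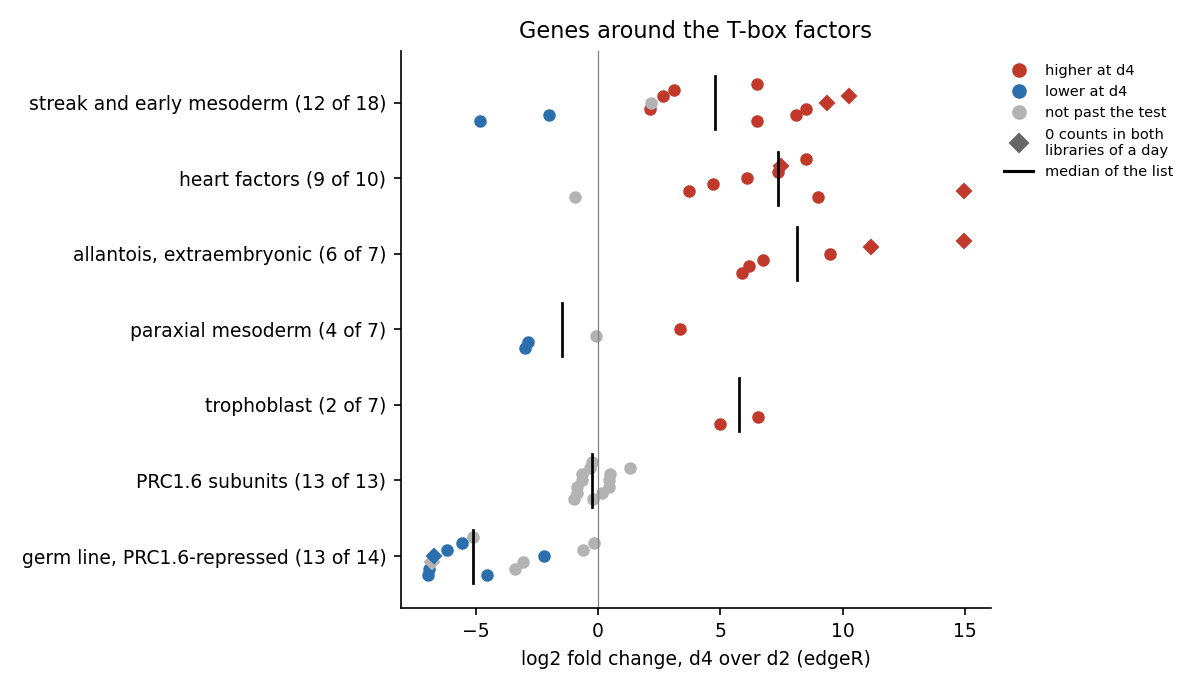
Log2 fold change of d4 over d2 by edgeR (horizontal) for the tested genes of 7 lists around the T-box factors (rows, with the number tested of those listed), coloured by the call, with a black line at the median of each list. Heart factors and extraembryonic genes lie to the right of 0 but for Casz1, germ line genes to the left, and diamonds mark genes at 0 counts in both libraries of a day, whose place depends on the prior count.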

How the data were processed

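The deposited values are raw read counts per gene, which the authors made from strand-specific, paired-end reads of 75 bp by trimming with cutadapt 2.9, alignment to mm10 with STAR 2.6.0a and counting with featureCounts of Rsubread 2.0.1, without multi-mapping reads. The methods name the annotation both as GENCODE M10 and as an Ensembl release. No filter or normalization was applied to the counts, and each library's total is given above.

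Symbols and positions came from GENCODE M21 of GRCm38, the same build as mm10, in which 55227 of 55487 IDs were found. Promoter windows came from RefSeq. Genes were kept where a day's summed counts exceeded 0.5 CPM in a one-sided proportion test (adjusted p under 0.05), after the study's filter. The d4 and d2 libraries were compared with edgeR 4.0.16 in R 4.3.3 (TMM, glmQLFit, glmQLFTest, two-sided), with Benjamini-Hochberg adjustment and a threshold of 0.01. Adjusted p-values are from this test unless another is named. Standard errors came from the coefficient and the F statistic. CPM values are TMM-normalized. Genes at 0 counts in a day have a lower bound against 3 counts per library, and genes at 1 to 3 counts a ratio with an exact 95% counting interval. The fit was tested on simulated counts.

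Every T-box gene is named. In the lists of partners, targets, PRC1.6, germ line, paraxial, allantois and trophoblast genes, the 4 genes with the smallest adjusted p are named. All are named where at most 8 were tested. Genes on the other strand of a member or within 1 kb of it are also named. The other marker lists are given mainly as counts of genes and summed levels. Gsc, Casz1, Tnnt2, Nkx2-5, the endoderm genes and genes given only by low counts were named after their values were seen. Members and lists were chosen with earlier results of these data known. Some genes were left out of the list of heart targets after their values were seen and are not reported here. The alternatives were DESeq2 1.42.0 and limma voom (3.58.1), other scalings, filters and thresholds, thinning, the replicate number as a block, other gene lengths, and leaving out each library.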

Additional observations from a re-analysis of the deposited data

How the results depend on the processing

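No T-box gene changed direction under any alternative that gave it a value. Of 155 such values, 132 kept their side of the threshold, 15 lost the call and 8 gained it. The values at an adjusted p under 0.05 and at a log2 fold change of at least 1 are among them. Both reused the main fit, so direction could not change there. The count of T-box genes that fell was 0, and was 1 (Mga) with no filter on low counts and 1 with the replicate block. Over all genes, 1933 rose and 1695 fell, against 2901 and 2873 with no filter, 3478 and 3496 with the replicate block, and 2991 and 2679 at an adjusted p under 0.05. Of the genes in the lists of streak and heart partners, heart targets, PRC1.6 and germ line, 20 rose and 11 fell, and 18 fell with no filter, 21 with the replicate block and 19 at 0.05. The labels do not say whether libraries with the same replicate number came from the same differentiation experiment, and the main fit took them as unpaired. Deviations from the day means correlated at 0.405 across genes. With the block 7 T-box genes rose, Tbx4 among them (edgeR adjusted p = 6.64e-04). Mga then had a log2 fold change of -1.35 (edgeR adjusted p = 3.95e-06). Of 13 PRC1.6 subunits 1 rose and 5 fell with the block, against 0 and 0. With one library left out in turn, by edgeR or DESeq2, T-box genes that rose numbered 0 to 7 and those that fell 0 to 1, all genes that rose 0 to 2264 and fell 0 to 2457, and list genes that rose 0 to 21 and fell 0 to 16. The lone library of a day is then assumed to vary like the other day's. The counts of 0 for genes that rose came from edgeR without either d2 library. Without d2 replicates 1 and 2 in turn, Tbx5 had edgeR adjusted p of 0.0598 and 0.0647. The streak share was 39.9% at d4 and 95.6% at d2 with coding length. Depth limited Tbx1, Tbx5 and Tbx6, each with at most 15 counts in any library.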
